A study of Mus musculus with 30 samples.

Results

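The broad Snf2h regions shared by both CH12 lines are stretches of the mouse genome where ChIP-seq for the chromatin remodeller Snf2h gave called regions in wild-type and in CTCF mutant cells, and where the joined call was wide. They were selected on the Snf2h calls themselves. Regions of both Snf2h lists on chromosomes 1 to 19 were joined where they overlap or touch, and a joined region was kept when both lists contributed to it and its width was at least 500 bp. This gave 2242 regions of 10165 joined regions called in both lines, and of 29815 joined Snf2h regions in all. The other 7923 shared regions, all under 500 bp, are called narrow shared regions here. Of the rest, 6446 regions were found in the wild-type list alone and 13204 in the mutant list alone.

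Of 30 mouse samples in the series, each alone in its group, 8 entered this account and the other 22 were not analysed here. CH12 is a mouse B lymphoma line. The wild-type cells carried no vector and were untreated, and the mutant cells carried a homozygous deletion of zinc fingers 9 to 11 in the CTCF gene, made with Cas9. Chromatin of both was crosslinked with formaldehyde and precipitated with the same Snf2h antibody. Cohesin was mapped in NIH3T3, a mouse immortalized embryonic fibroblast line, with antibodies to SMC1, RAD21 and SMC3. Its cells stably carried either a control plasmid (empty vector, expressing beta-galactosidase) or a CpG-free plasmid for BORIS, and the BORIS line is a single clone, clone 2. The cohesin lists thus come from another cell type than the Snf2h lists, and cohesin in CH12 was not analysed here.

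Snf2h is the ATPase of the ISWI family of remodelling complexes, which slide nucleosomes along DNA and space them. CTCF binds DNA through an array of zinc fingers and, with cohesin, sets boundaries of chromatin loops. Snf2h is known to act at CTCF sites, where it helps to keep flanking nucleosomes in regular order and the factor on DNA. Cohesin is a ring that includes SMC1, SMC3 and RAD21 and that stops at bound CTCF. BORIS (CTCFL) is a germline relative of CTCF with a similar zinc finger domain.

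Each group had 1 list, so there is no replicate check on any difference between lines and no p-value is given. The 95% intervals given for shares are exact binomial ones (Clopper-Pearson); they hold counting error alone, and neighbouring regions are not independent. The lists give no read totals. At the summit, the base of highest read density, the pileup of fragments over broad shared regions had a median of 29 in wild type and 32 in the mutant, recovered from the deposited fold and −log10 p. The wild-type list held 17306 regions and the mutant list 23873. A region's strength is given as its percentile by −log10 p in its own list, where 100 is the strongest. No region was assigned to a gene, since no annotation for their build was at hand, and coordinates are printed as the lists give them.

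The broad shared regions were mostly only slightly wider than the threshold. Their median width was 605 bp, with quartiles of 546 and 707 bp and a 90th percentile of 856 bp. There were 106 regions of at least 1000 bp (4.73%), 18 of at least 1500 bp and 5 of at least 2000 bp. Narrow shared regions had a median of 335 bp. In 2011 broad regions (89.7%) each list contributed 1 called region. In 160 regions (7.14%) 2 or more wild-type regions were joined by 1 mutant region, in 61 (2.72%) 1 wild-type region joined 2 or more mutant regions, and in 10 both lists had 2 or more. Width was thus seldom a chain of many calls. The values at the threshold were continuous, with 13 shared regions of 499 bp and 7 of 500 bp.

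The regions just inside and just outside the threshold spanned a wide range of ranks. Just inside, at 500 bp, chr2:112208036-112208535 had percentiles of 6.43 in wild type and 51.0 in the mutant, chr6:115895633-115896132 had 25.7 and 58.7, and chr10:43172072-43172571 had 66.8 and 35.7. Just outside, at 499 bp, chr1:85102322-85102820 had 93.2 and 94.1, chr1:183819026-183819524 had 67.3 and 16.6, and chr2:32391705-32392203 had 78.1 and 96.8. These values describe the selection and were not compared.

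The mutant calls covered more of the selected width than the wild-type calls did. The base pairs called inside a broad shared region had a median of 423 in wild type and 556 in the mutant, and the median of the ratio of mutant to wild type was 1.302. The mutant list alone covered at least 500 bp in 1605 regions (71.6%), against 743 (33.1%) for the wild-type list. Both lines reached 500 bp on their own in 517 regions (23.1%), the mutant only in 1088 (48.5%) and wild type only in 226 (10.1%). Neither did in 411 (18.3%), where only the joined calls reached 500 bp. The called length in the mutant was at least 1.5 times that of wild type in 894 broad regions (39.9%), where the share over all shared regions was 26.3%. The reverse held in 152 (6.78%), against 4.17% of all shared regions. The selection used the joined width and so admits regions through either line, and nothing is read from these excesses.

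**Figure D1:**
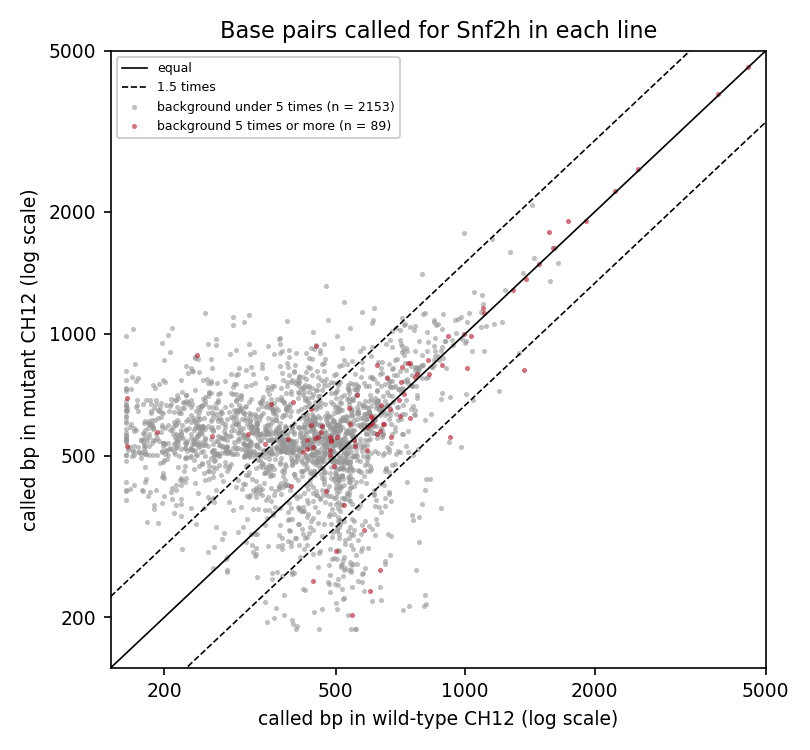
Base pairs called for Snf2h in each of the 2242 broad shared regions, wild type on the x axis and mutant on the y axis, both on log scales in bp. Each point is 1 region, the solid line marks equal length and the dashed lines a ratio of 1.5; 894 points lie on or above the upper dashed line and 152 on or below the lower one, and the 89 regions whose local background is at least 5 times the lowest of the list in both lists (red) lie mostly near the solid line.

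The edges are part of the width selected on and are given as a description. Among the 2011 regions with 1 call in each list, the mutant call reached at least 50 bp further on both sides in 449 (22.3%) and on 1 side only in 619 (30.8%). The wild-type call reached further on both sides in 47 (2.34%) and on 1 side only in 196 (9.75%). Over all 9928 shared regions with 1 call in each list, these shares were 11.1% and 33.9% for the mutant and 1.19% and 9.69% for wild type. In 513 regions (25.5%) the calls were offset, each reaching further on its own side, and in 187 (9.30%) both edges lay within 50 bp. The narrowest region of a list was 163 bp in wild type and 187 bp in the mutant. With the difference of 24 bp taken off every mutant call, a setting chosen after seeing the data, the mutant was at least 1.5 times longer in 839 broad regions (37.4%, 95% interval 35.4 to 39.5) and wild type in 177 (7.89%), and the median ratio was 1.25. The count over all shared regions moved more, from 2674 to 2134.

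The strongest points of both lines often did not coincide. The summits lay a median of 67 bp apart, with an upper quartile of 180 bp and a 90th percentile of 310 bp. In 876 broad regions (39.1%) they were 100 bp or more apart, against 1334 (16.8%) of narrow shared regions, which leave less room for a distance. The largest distance was 1144 bp.

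Broad shared regions spread over the whole range of ranks. Their median percentile was 68.4 in the wild-type list and 76.7 in the mutant list, beside 62.3 and 70.3 for narrow shared regions. The lower of both percentiles was under 50 in 909 broad regions (40.5%) and at least 90 in 417 (18.6%), against 48.5% and 11.3% of narrow ones. Their folds over local background were much alike, with medians of 3.78 in wild type and 4.53 in the mutant for broad regions, and 3.82 and 4.49 for narrow ones. Of the shared regions whose lower percentile was at least 90, 417 of 1311 (31.8%) were broad, and of those under 10, 140 of 919 (15.2%). Among the broad regions themselves, width went with rank only weakly, with a Spearman rho of 0.08 in wild type and 0.10 in the mutant over 2242 regions that share their 2 libraries. With fold the rho was 0.01 and 0.02. The percentile was higher at the wide end. The median wild-type percentile was 66.1 in the 1076 regions of 500 to 600 bp, 66.3 in the 863 of 600 to 800 bp, 75.4 in the 197 of 800 to 1000 bp, 85.3 in the 88 of 1000 to 1500 bp and 93.8 in the 18 wider ones. The median wild-type fold in these bins was 3.78, 3.73, 3.84, 4.32 and 4.22, and the median wild-type background 1.99, 2.04, 2.28, 2.41 and 5.64 times the lowest rate of the list, the local fragment rate taken by the peak caller. The part of background in the higher percentiles was not tested.

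Between the lines the ranks went together loosely. The Spearman rho of the percentiles was 0.713 over the broad regions and 0.645 over the narrow ones. The median difference, mutant minus wild type, was 3.75 points, with quartiles of −2.86 and 20.1. The percentile was at least 10 points higher in the mutant in 817 broad regions (36.4%) and at least 10 points lower in 374 (16.7%). Over all shared regions these shares were 37% and 21.5%, so the first share lay near the background. A percentile depends on the length of its list, and the mutant list is the longer one. With 17306 regions kept in each list the counts were 565 higher and 521 lower, which makes 52.0% of the shifted regions higher in the mutant instead of 68.6%. Requiring a −log10 q of 10 or more left 306 and 55 (84.8% higher). The size of the balance therefore depends on how the lists are filtered.

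**Figure D2:**
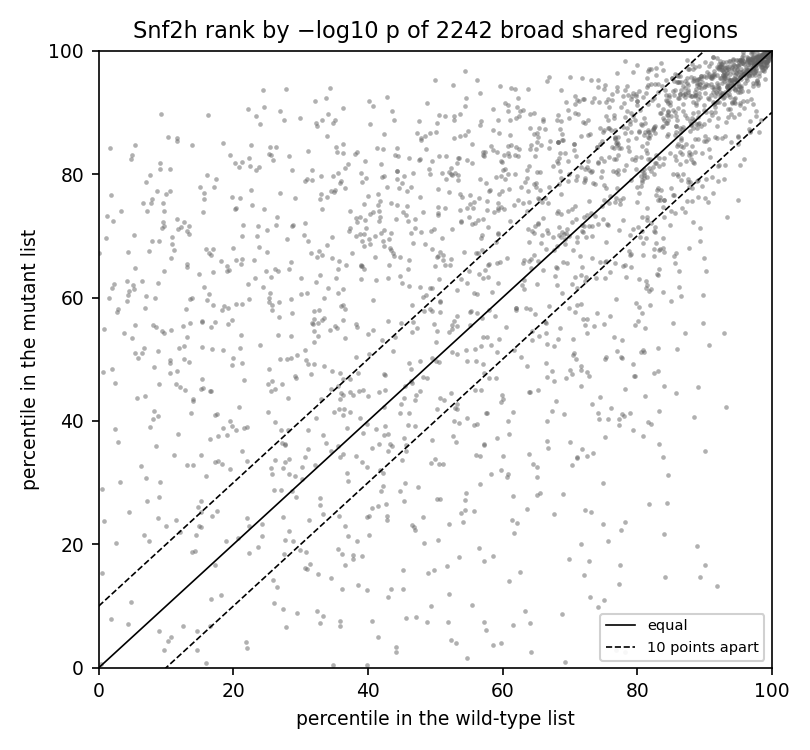
Percentile by −log10 p of each of the 2242 broad shared regions in the wild-type list (x axis) and in the mutant list (y axis), with 1 point per region. The solid line marks equal percentiles and the dashed lines a difference of 10 points; 817 regions lie on or above the band and 374 on or below it, and the points draw together toward the upper right corner.

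The regions with the largest differences in rank were weak in 1 line and of upper-middle rank in the other. At chr16:31427877-31428400 the percentile was 1.61 in the wild-type and 84.2 in the mutant list, with folds of 2.59 and 4.78 and pileups of 21 and 39. At chr9:103327016-103327612 it was 9.20 and 89.8, and 220 bp were called in wild type against 597 bp in the mutant. The next were chr3:108261467-108262079 (5.34 and 84.7), chr4:141180838-141181661 (4.98 and 83.1) and chr15:36935828-36936338 (4.87 and 82.5). The first 3 of these 5 had no cohesin region within 1 kb in any list, and the other pair was overlapped in all 6.

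In the other direction, chr8:113435623-113436246 had percentiles of 91.9 in wild type and 13.3 in the mutant, with folds of 5.32 and 3.25 and pileups of 47 and 18. The others were chr15:10416811-10417370 (82.9 and 7.13), chr16:92038082-92038776 (78.2 and 2.63), chr5:115273957-115274607 (89.4 and 14.6) and chr3:106264814-106265319 (76.8 and 2.92). At chr5:115273957-115274607 the wild-type call was 651 bp long and the mutant call 275 bp. Cohesin regions of all 6 lists overlapped 3 of these 5. The highest percentile reached by any of these 10 regions was 91.9.

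The strongest broad regions were named for a high rank in both lines, so their like ranks are no result. At chr9:35112701-35113275, first in both lists, the folds were 20.6 and 23.2. Its pileups of 326 and 374 were the highest of each list, which is exactly 2 times the narrowest region in both, so pileup was at a ceiling there and the folds may be too low. At chr10:58393302-58393882 the folds were 20.4 and 23.5, with pileups of 297 and 365, the second within 5% of that ceiling. At chr12:68160086-68160938 they were 17.3 and 18.99, at chr18:90771503-90772031 19.6 and 20.4, and at chr11:117764848-117765437 17.0 and 20.7. These 5 regions were 529 to 853 bp wide, so the strongest were not the widest.

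The 5 widest regions had lower folds than the 5 strongest, and their local background varied widely. The widest, chr1:24618422-24622976, spanned 4555 bp with folds of only 2.35 and 2.53, on pileups of 308 and 309. Its background rate, the fragment count the peak caller took as local background, was 38.8 times the lowest of the list in wild type and 47.1 times in the mutant. At chr17:39979980-39983892 (3913 bp) the folds were 2.06 and 2.33 and the background 35.7 and 39.1 times the lowest. At chr17:13743489-13746038 (2550 bp) the folds were 6.01 and 5.91 with a background of 11.5 and 12.9 times, and at chr13:74665914-74668174 (2261 bp) they were 6.21 and 5.98 with 7.42 and 9.01 times. The fifth, chr1:75457075-75459153 (2079 bp), had folds of 4.16 in both lines on a background of 2.42 and 4.93 times. In the first 4 the wild-type call covered nearly the whole width. Only chr17:39979980-39983892 was overlapped by cohesin, in all 6 lists.

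High local background was more frequent among wider regions. It reached at least 5 times the lowest rate in both lists in 89 broad regions (3.97%, 95% interval 3.20 to 4.86), against 119 narrow shared regions (1.502%, 1.25 to 1.79). Within the broad regions the share was 2.60% at 500 to 600 bp, 3.71% at 600 to 800 bp, 6.60% at 800 to 1000 bp, 7.95% at 1000 to 1500 bp and 50% (9 of 18, 26.0 to 74.0) above that. Below 1500 bp the interval of each bin overlapped that of the next, and the widest bin holds only 18 regions. The 89 regions had a median pileup of 104 in both lines and median folds of 2.76 and 2.995, beside 29 and 31 and folds of 3.81 and 4.57 in the other 2153. Their called lengths hardly differed, with a median ratio of 1.03 against 1.33 in the others. Background is part of the calculation of fold and rank, so these values are a description.

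**Figure D3:**
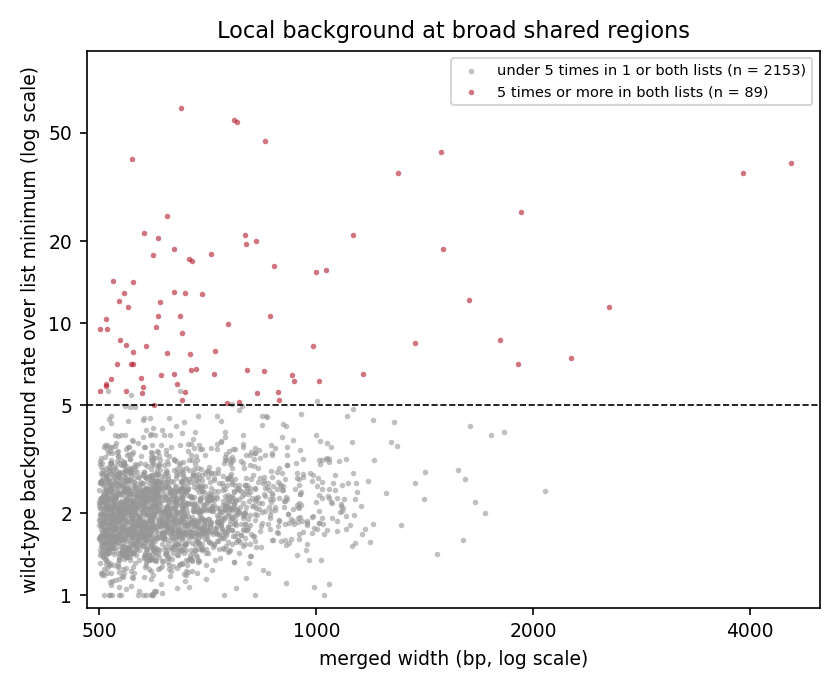
Local background rate at the wild-type summit, as a multiple of the lowest rate in the wild-type list (y axis, log scale), against joined width in bp (x axis, log scale), with 1 point per broad shared region. The dashed line marks 5 times; the 89 regions at or above it in both lists (red) include 9 of the 18 regions of at least 1500 bp.

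Of the 89 regions of high background, 59 lay in runs of broad regions. Joined by gaps of at most 100 kb, the broad regions formed 17 runs of 5 or more, which held only 120 of the 2242, while 1321 stood alone. The longest run, chr1:84955080-85343592, held 22 regions, 21 of them with high background, and a second on the same chromosome, chr1:87348235-87584481, held 12 with 10 of high background. On chr6:47617809-47731096 it was 7 of 9. At chr9:3000029-3038292, at the start of the chromosome in these lists, all 6 regions had high background, a median of 50.8 times the lowest rate in wild type and 71.5 times in the mutant, with median folds of 1.83 and 1.796. Their pileups were 298 to 326 in wild type and 293 to 374 in the mutant, where the highest of each list are 326 and 374, so some but not all of these 6 regions were at the ceiling of pileup. At chr11:3000018-3100025 all 5 regions had high background too, with pileups of 91 to 324 in wild type and 80 to 363 in the mutant. Other runs had none, such as chr4:133049981-133430568 with 8 regions, a background of 2.14 times in wild type and folds of 3.75 and 4.86.

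The broad regions made up 22.1% of all shared regions. By chromosome the share was lowest on chromosome 4, at 18.7% (16.0 to 21.7), and highest on chromosome 14, at 26.0% (22.3 to 30.0), and the intervals of these 2 chromosomes excluded the share over all 19, while those of the other chromosomes included it. The median rank difference between the lines was above 0 on each of the 19 chromosomes, from 1.04 points on chromosome 1 to 9.94 on chromosome 12. These medians carry the same dependence on list length as the counts above.

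The 5 regions with the most separate calls inside showed how joining works. At chr9:14938985-14940697, 4 wild-type calls covering 1153 bp lay under 1 mutant call of 1713 bp, with percentiles of 79.2 and 82.5. At chr11:32518772-32520141 and chr11:88829129-88830878, 3 wild-type calls met 2 mutant calls, and at chr2:129400208-129401257 and chr4:6851621-6852418 each list had 2. Of these 5, only chr11:32518772-32520141 was overlapped by cohesin.

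Cohesin, mapped in NIH3T3, was not used in the selection. The comparison asked whether broad shared Snf2h regions coincide with cohesin regions differently from other Snf2h regions. The strongest wild-type summit lay inside a cohesin region of all 6 lists in 332 broad regions (14.8%, 95% interval 13.4 to 16.3), where the share over all joined Snf2h regions was 16.9%. The narrow shared regions gave 15.6% (14.8 to 16.4), so the intervals overlapped. Wild-type-only regions gave 22.6% (21.6 to 23.6), above the broad ones beyond counting error. Mutant-only regions gave 15.2% (14.6 to 15.9) at their own summit. With the mutant summit in place of the wild-type one the share in broad regions was 13.8% (12.4 to 15.3). No cohesin list covered the summit in 1560 broad regions (69.6%), against 70.1% over all.

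Over the whole region instead of the summit, cohesin regions of all 6 lists overlapped 607 broad regions (27.1%, 25.2 to 29.0), where the share over all joined regions was 22.6%. The share was 20.2% (19.3 to 21.1) for narrow shared regions, 20.7% (20.0 to 21.4) for mutant-only and 28.1% (27.0 to 29.2) for wild-type-only regions, which were not selected for width. The part of width in these shares was not tested. No list overlapped 1283 broad regions (57.2%), against 64.1% of all joined regions and 67.9% of narrow ones. No cohesin region lay within 1 kb of 1027 (45.8%), against 49.5% of all joined regions, 52.8% of narrow, 47.8% of wild-type-only and 49.1% of mutant-only ones. By base pairs, each cohesin list covered 16.2 to 19.9% of the length of the broad regions, 16.6 to 19.9% of the narrow, 18.4 to 22.9% of the mutant-only and 25.2 to 28.2% of the wild-type-only regions. Where all 6 lists overlapped, the cohesin regions held the Snf2h summit in 54.7% (50.6 to 58.7) of broad regions and in 77.4% (75.3 to 79.4) of narrow ones.

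**Figure D4:**
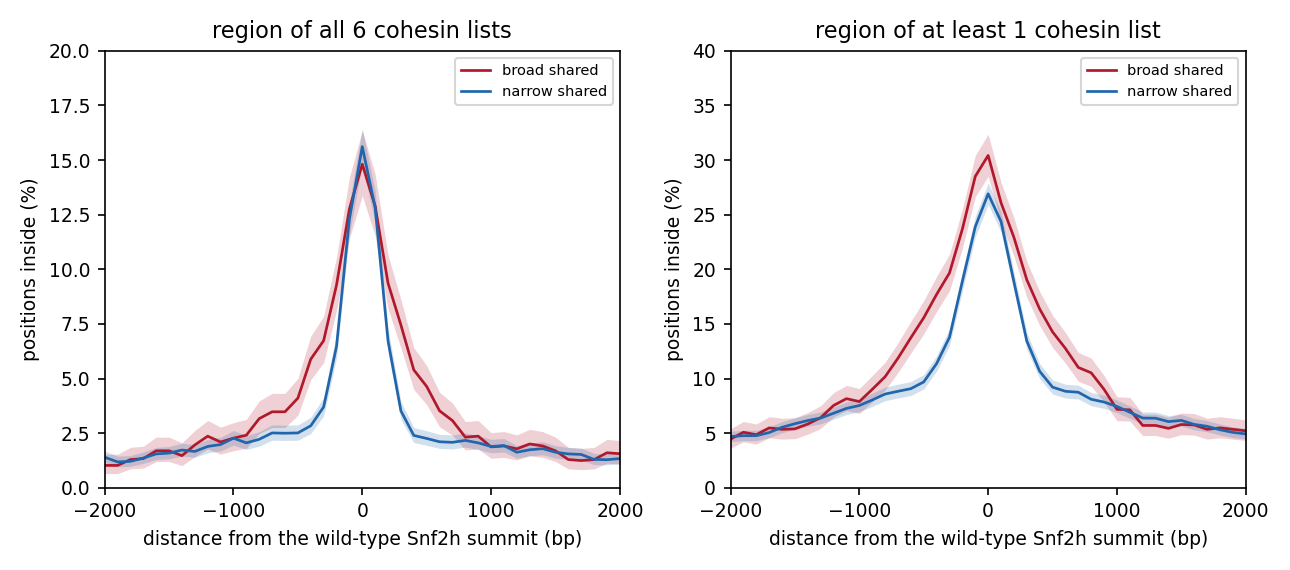
Share of positions inside a cohesin region of all 6 lists (left) and of at least 1 list (right), in percent, at distances of −2000 to 2000 bp from the wild-type Snf2h summit. Red is the 2242 broad and blue the 7923 narrow shared regions, with bands for 95% exact binomial intervals; the curves meet beyond 1000 bp and the red one is wider around the summit.

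The profile around the summit showed this as a wider shoulder. At the summit itself 30.4% (28.5 to 32.4) of broad and 26.9% (25.9 to 27.9) of narrow regions lay in at least 1 cohesin list. At 500 bp before it the shares were 15.6% (14.1 to 17.1) and 9.69% (9.05 to 10.4), and at 500 bp after it 14.3% (12.9 to 15.8) and 9.21% (8.59 to 9.87). At 1000 bp before it they were 7.89% and 7.54%, within each other's intervals. The strongest cohesin summit in a broad region lay a median of 156 to 166 bp from the wild-type Snf2h summit, depending on the list, and 164 to 182 bp from the mutant one. Neither line was the nearer more often: the wild-type summit was nearer in 49.7 to 52.0% of regions over the 6 lists, and each list's interval included 50%.

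Within the same rank the picture was less even. Among narrow shared regions the share with cohesin in all 6 lists at the summit was 20.5% (17.8 to 23.5) where the lower Snf2h percentile was at most 10, and 8.61% (6.86 to 10.6) where it was above 90. Among broad regions these shares were 12.1% (7.24 to 18.7) and 12.9% (9.88 to 16.6). The plan named strata of rank, but not the cuts at 70 and 50 used next. For percentiles above 70, 12.4% (10.3 to 14.7) of 905 broad regions had cohesin of all 6 lists at the summit and 8.75% (7.69 to 9.91) of 2582 narrow ones. For at least 1 list the shares were 28.3% (25.4 to 31.3) and 18.5% (17.0 to 20.0). For percentiles up to 50 they were 16.0% (13.6 to 18.5) and 19.5% (18.3 to 20.8) with all 6 lists, and 32.2% and 31.8% with at least 1. Without the regions of high background, chosen after seeing the data, the shares above 70 with all 6 lists were 11.1% (9.06 to 13.4) and 8.53% (7.47 to 9.69), whose intervals overlapped. With at least 1 list they were 28.0% (24.9 to 31.1) and 18.3% (16.8 to 19.8). The intervals of the latter did not overlap.

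**Figure D5:**
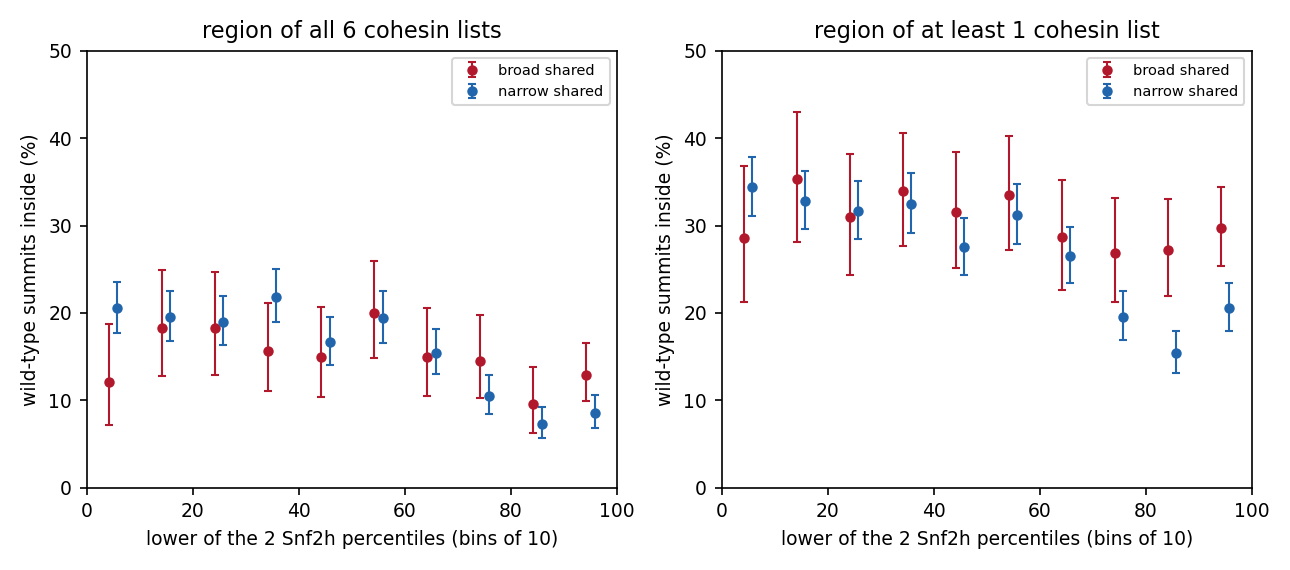
Share of wild-type Snf2h summits inside a cohesin region of all 6 lists (left) and of at least 1 list (right), in percent, by the lower of both Snf2h percentiles in bins of 10. Red is broad and blue narrow shared regions, with 95% exact binomial intervals; the blue points are lower in the top 3 bins than in the lower ones, and the red points change less.

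The regions of high background had cohesin of all 6 lists at the summit more often than the others, though only in a minority. Of these 89, 22 (24.7%, 16.2 to 35.0) had it, against 310 of the other 2153 (14.4%, 12.9 to 16.0). These intervals narrowly did not overlap, and neighbouring regions are not independent. All 6 regions of the run at the start of chromosome 9 were among the 22. At the summit, 63 of the 89 (70.8%, 60.2 to 79.9) lay in no cohesin region, close to the 69.5% of the others, and 59 (66.3%, 55.5 to 76.0) were overlapped by no list, against 56.9% (54.7 to 59.0) of the others. The part of local background in the cohesin calls was not tested.

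At broad regions, the shares with cohesin had overlapping intervals whatever the direction of the Snf2h difference. The share with cohesin of all 6 lists at the wild-type summit was 13.8% (11.5 to 16.4) of the 817 broad regions ranked higher in the mutant, 14.4% (12.3 to 16.6) of the 1051 within 10 points and 18.2% (14.4 to 22.5) of the 374 ranked lower. At the mutant summit these shares were 13.2%, 13.8% and 15.0%. By length they were 16.0% (13.7 to 18.6) where the mutant call was at least 1.5 times longer, 13.7% (11.8 to 15.8) between and 16.4% (10.9 to 23.3) where wild type was. All of these intervals at broad regions overlapped, and those of the smaller groups were wide. At narrow shared regions the wild-type summit shares were 15.5% (14.2 to 16.9) ranked higher, 13.2% (12.1 to 14.5) within 10 points and 19.9% (18.1 to 21.8) ranked lower. The last interval lay above both others. By length the intervals at narrow regions overlapped.

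Where cohesin met the summit of a broad region, it was usually strong. The cohesin region there had a median percentile of 78.3 (SMC1), 76.4 (RAD21) and 78.2 (SMC3) in empty-vector cells, and of 80.2, 77.4 and 79.7 in BORIS cells. These medians ran from 76.4 to 80.2 at broad regions and from 77.6 to 79.9 at mutant-only regions. At narrow shared regions each was higher than at broad ones, from 79.8 to 82.5, and at wild-type-only regions they were 81.3 to 85.4. The 6 lists share 2 lines and 3 antibodies and are not independent.

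The broad regions with the strongest cohesin ranged widely in Snf2h rank. At chr11:108239180-108239758 the lowest of the 6 cohesin percentiles was 99.8, while the Snf2h percentiles were 26.6 and 53.9. At chr11:4158656-4159230 the values were 99.6, with 18.3 and 58.0 for Snf2h. The others were chr18:75759253-75759990, chr2:119113796-119114437 and chr7:53056526-53057071, with lowest cohesin percentiles of 99.6, 99.5 and 99.2 and wild-type Snf2h percentiles of 83.3, 74.7 and 80.2. At all 5, the cohesin regions of every list held the Snf2h summit.

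Of the 5 strongest broad Snf2h regions, chr9:35112701-35113275 and chr18:90771503-90772031 were overlapped by cohesin in all 6 lists, chr12:68160086-68160938 in 5, chr10:58393302-58393882 in 1 and chr11:117764848-117765437 in none. The 3 strongest without cohesin were chosen for lacking it. At chr11:117764848-117765437, chr12:98299547-98300079 and chr9:59446392-59446901 no cohesin region of any list lay within 1 kb, although the Snf2h percentiles were between 99.86 and 99.99 and the folds 17.0, 20.97 and 19.5 in wild type. Since cohesin was mapped in fibroblasts and Snf2h in B lymphoma cells, a site used in B cells only and a site without cohesin cannot be told apart.

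The other contrast asked whether cohesin at the broad regions differed between BORIS and empty-vector cells. For regions called in both lines, the median difference in percentile, BORIS minus empty vector, was 0.05 points for SMC1 (747 regions), 0.16 for RAD21 (661) and 1.13 for SMC3 (722). For SMC1, 103 (13.8%) were at least 10 points higher in BORIS cells and 122 (16.3%) at least 10 points lower, against 12.8% and 19.5% over all joined Snf2h regions called in both. For RAD21 the counts were 92 (13.9%) and 95 (14.4%), against 11.5% and 14.2%. For SMC3 they were 120 (16.6%) and 90 (12.5%), against 15.2% and 11.7%. The medians were slightly above 0 for each antibody, while the counts past 10 points leaned to empty-vector cells for SMC1 and RAD21 and to BORIS cells for SMC3, as they did over all joined regions. At narrow shared regions the medians were −0.34, −0.18 and 0.46 points.

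Cohesin was called with all 3 antibodies in BORIS cells and with none in empty-vector cells at 13 broad regions (0.580%, 95% interval 0.309 to 0.9895), where the share over all joined Snf2h regions was 0.278%. The reverse was found at 4 (0.178%, 0.0486 to 0.456), against 0.258%. With at least 2 antibodies the counts were 31 and 19, and with equal numbers of regions in the lists 12 and 7. Among regions with a −log10 q of 10 or more they were 1 and 4, so the direction turned. These calls also depend on where a region ends. Within 1 kb of the region, empty-vector cells had cohesin regions too at chr3:95675066-95675689, chr4:126738463-126739017 and chr2:18507252-18507950 of the 13, and BORIS cells at chr14:21704317-21705267 of the 4. All 17 were of low to middle cohesin rank. Among the 13, the strongest in Snf2h were chr5:115371668-115372710, with Snf2h percentiles of 99.5 and 98.8, folds of 12.3 and 10.4 and BORIS cohesin percentiles of 59.8 (SMC1), 15.5 (RAD21) and 20.05 (SMC3), and chr4:118219774-118221407, 1634 bp wide, with 98.9 and 97.6 and cohesin percentiles of 9.69, 23.5 and 29.8. At chr10:69545433-69546500 the Snf2h percentiles were 34.8 and 79.6, and the cohesin percentiles were 59.8, 40.5 and 25.9. The 4 in the empty-vector set were chr9:20965234-20965898, chr13:23377003-23377734, chr14:21704317-21705267 and chr14:78730119-78731030. Their cohesin percentiles lay between 0.15 for RAD21 at chr13:23377003-23377734 and 62.4 for RAD21 at chr9:20965234-20965898.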

How the data were processed

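Regions came from ChIP-seq of Snf2h in 2 CH12 lines and of 3 cohesin subunits in 2 NIH3T3 lines, 8 lists in the narrowPeak layout. The submitters' processing notes name Bowtie, Bowtie2, SAMtools, MACS2, deepTools 3.5.0 and the builds mm9 and hg19, with no role given; mm9 is the only mouse build among them. The control, the filters and the pooling of replicates are not given in the sources used here, and a tag in the Snf2h region names can be read as pooled replicates. The authors deposited for each region a score (the whole-number part of 10 times −log10 q, in at least 99.995% of regions), a fold, which is a ratio of pileup to background, and −log10 p and −log10 q values. They were used to rank or filter within a list only.

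Computed here were the joined regions, percentiles by −log10 p, overlaps of at least 1 bp, and the whole-number pileup and background rate that give the deposited fold and −log10 p under a Poisson tail (within 0.001 in −log10 p, recovered for 100% of regions in every list). Regions named were, by rule, the 5 widest, the 5 highest in the lower percentile, the 5 with the largest rank difference in each direction, the 5 with most calls inside, the 5 with the strongest cohesin, the 3 strongest without cohesin within 1 kb and 3 on each side of the threshold; those called for cohesin in 1 NIH3T3 line only, the runs and the regions of high background were named after their values were seen. The members and lists were chosen with earlier results of these data known. Scripts were tested on simulated data and used Python 3.11.15, numpy 2.4.6, pandas 2.3.3, scipy 1.17.1 and matplotlib 3.10.9. Gene starts and sequences were not used, since no genome of their build was at hand. Alternatives were stricter q, equal list lengths, other widths, overlaps, ratios, shifts, summits and antibody counts, and 2 settings added after seeing the data.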

Additional observations from a re-analysis of the deposited data

How the results depend on the processing

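Of 63 values under the alternatives, 37 stayed within 1.5 times the reported count or inside the reported interval or range, and 26 moved. Keeping regions with a −log10 q of 10 or more left 631 broad regions, 156 of them longer in the mutant and 27 in wild type, 306 ranked higher and 55 lower, with cohesin of all 6 lists at the summit in 9.67% and overlapping in 17.4%, a cohesin rank of 57.8 and 1 region with cohesin in BORIS cells only. Fewer regions pass that filter by construction. With equal numbers (17306 regions for Snf2h and 82235 for cohesin) the overlap was 25.2%, the cohesin rank 75.8 and the empty-vector-only count 7. A width of 400 bp gave 4156 regions (cohesin rank 80.9), 750 bp gave 435 (72.8), and 500 bp in each line on its own gave 517 (74.1, overlap 24.95%). A ratio of 2 gave 513 regions longer in the mutant and 59 in wild type, and a shift of 20 points gave 214 ranked lower. A cohesin summit within 100 bp in all 6 lists was found at 7.67%, and a cohesin region of at least 1 list at 30.4%. At least 2 antibodies gave 31 BORIS-only and 19 empty-vector-only regions. For these values the cause was not tested. Leaving out the 89 regions of high background, or shortening mutant calls by 24 bp, both chosen after seeing the data, kept all values they were run on within those limits. No paired analysis was possible because each group had 1 list, and no replicate could be left out. Gene starts and sequences around summits, planned if a genome of the build was at hand, were not run. Absence from a list does not show absence of binding, since depth limits weak regions.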

Other observations

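The highest pileup of every list was 2.00 times the width of its narrowest region, 326 over 163 bp in wild-type and 374 over 187 bp in mutant Snf2h, and 232 over 116 bp in SMC1 of empty-vector cells. Within 5% of that value lay 10 broad shared regions in wild type, 10 in the mutant and 9 in both.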
